A study of Mus musculus with 9 samples.

Results

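The comparison described here set 3 approaching (AP) mice against 3 balancing (BA) mice, 6 of the 9 mice of the series, over all 11820 genes listed in their shared table. The members were chosen by phenotype label alone, and no expression value entered that choice. The B6.Cg-Tg(Thy1-YFP)HJrs/J strain supplied all 6 mice, and in it a Thy1 promoter drives yellow fluorescent protein in subsets of projection neurons. Mice were graded by their spontaneous behavior when rewarding and aversive stimuli were offered together: AP mice tended to approach, and BA mice showed balanced responses. No drug was given, and age and sex are not given in the labels. Every library came from the sorted fluorescent amygdala cells of a single mouse, taken 1 month after the behavioral task, so the 3 mice of a group are separate animals. The question was which transcripts of amygdala pyramidal neurons differ between mice that approach and mice that balance.

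The amygdala assigns emotional value to stimuli, and its pyramidal neurons are excitatory cells that release glutamate and carry calcium/calmodulin kinase II and neurogranin at their synapses. Microglia are the resident macrophages of the brain. They sense their surroundings through purinergic, chemokine and Fc receptors, make the C1q complement proteins and degrade what they take up in cathepsin-rich lysosomes. In a bulk library of sorted cells, fewer cells of a type and less RNA per cell cannot be told apart.

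The measure was the deposited normalized signal, in which a gene without reads is listed at 2 in every mouse. The values of a mouse summed to between 4589304 and 5072766, and the steps between low values correspond to between 3817149 and 6720895 reads. The level of 3 reads, below which a gene cannot be told from one without reads, lay between 4.13 and 5.68 by mouse, a limit that covers counting error only. AP mouse 3 had 114 genes at the lowest value, against 9 to 37 in the other 5 mice. Of 13 markers of excitatory forebrain neurons the table lists 2, Camk2a and Nrgn, and of 13 general neuron markers it lists 5. Slc17a7, Neurod6 and Thy1 are not among the listed genes. All 15 oligodendrocyte markers and all 16 astrocyte markers are listed. Summed over their markers, oligodendrocyte genes reached between 278876 and 353530 in each mouse, and the 2 excitatory neuron markers between 76 and 1794. The label of sorted pyramidal neurons therefore stands beside a table in which the summed level of oligodendrocyte markers exceeded that of the listed excitatory neuron markers in every mouse.

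Across all genes, the difference between AP and BA mice was small beside the spread between mice. Limma on log2(value + 1), with Benjamini-Hochberg adjustment over all 11820 genes, called 1 gene at an adjusted p under 0.05, or 0.00846% of genes. Without adjustment, 918 genes had a p under 0.05, or 7.77%, of which 590 were higher in AP mice (4.99%) and 328 lower (2.77%). All 3 AP mice lay above all 3 BA mice for 667 genes (5.64%), and all 3 lay below for 762 genes (6.45%). The median log2 fold change, positive where AP mice were higher, was -0.03 over all genes. A gene whose groups do not overlap is called agreeing here, and 12 agreeing genes were separated by a gap of at least 1 on the log2 scale when higher, and 3 when lower.

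The called gene was Lenep (ENSMUSG00000078173.3, chr3:89400988-89402793 of GRCm38, minus strand), a gene known from lens epithelium. Lenep was listed at 17.8, 22.6 and 17.9 in the BA mice and at 2 in each AP mouse. It fell to the value of a gene without reads in all 3 AP mice, at least 3.59-fold lower against the highest level of 3 reads among AP mice, with a limma adjusted p of 0.00818. The AP values had a range of 0 because all lay at the lowest value, so the small spread behind this p-value comes partly from that limit. Of the 1806 exonic bases of Lenep, 1790 also belong to exons of Flad1 on the same strand, so how reads were divided between the 2 genes bears on its values. The call was lost without BA mouse 1, 2 or 3, without AP mouse 2, and with a pseudocount of 5. Its mean was under 20 in both groups, so the fit limited to genes with a mean of at least 20 left Lenep out.

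**Figure D1:**
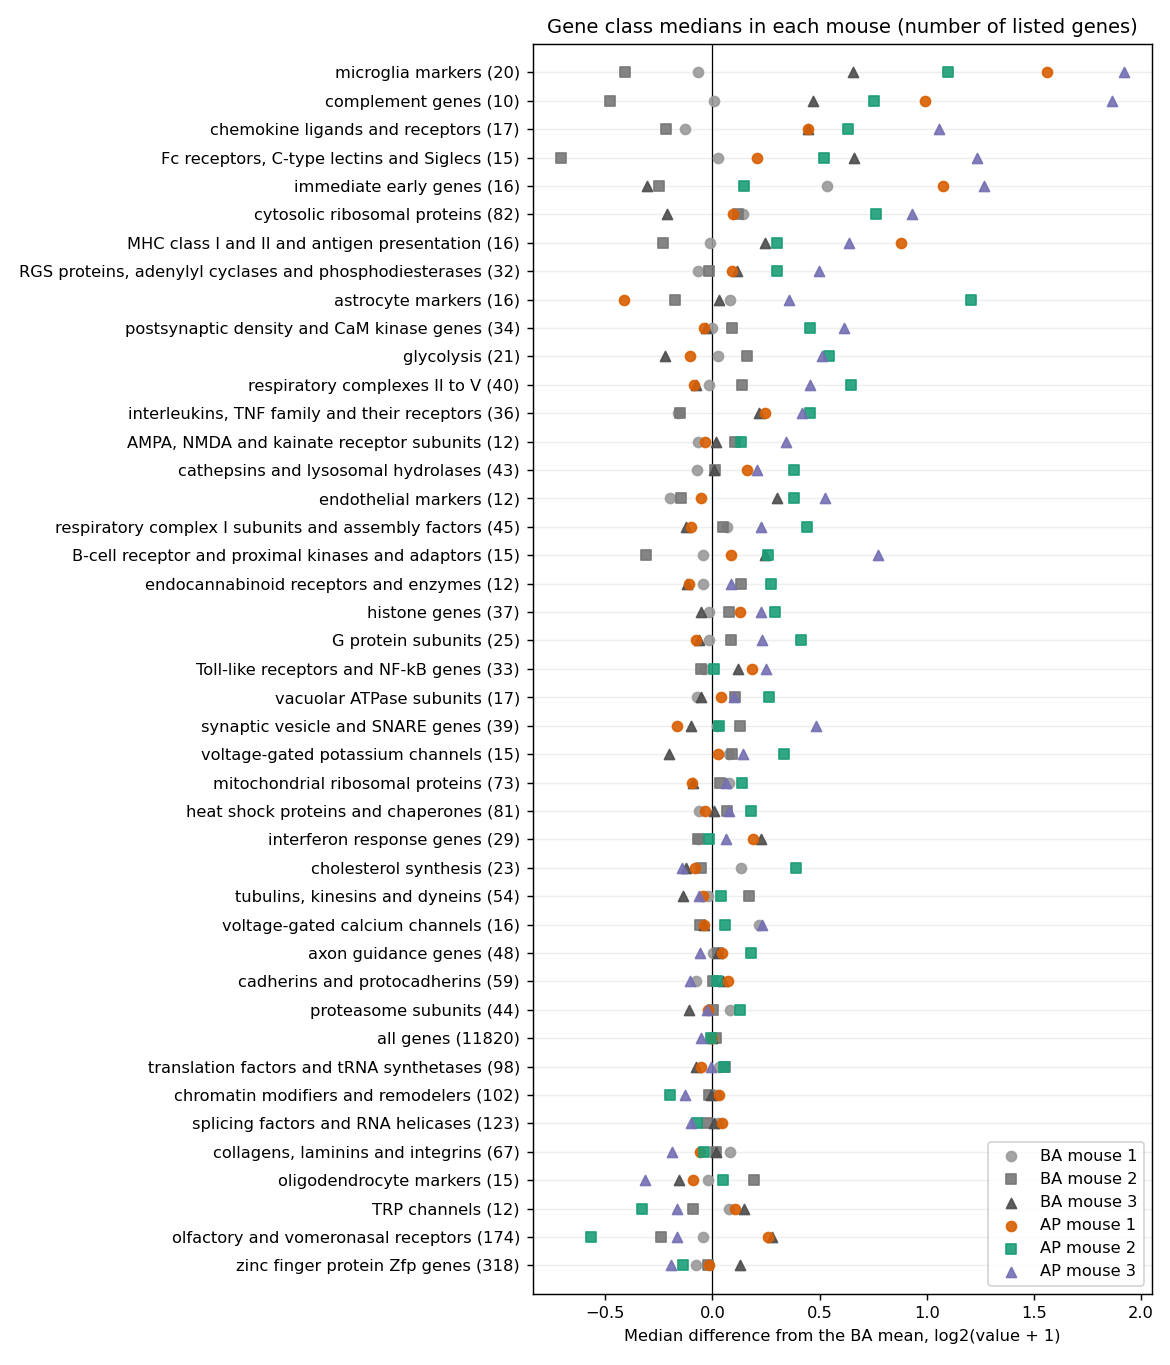
Median difference of each gene class from the mean of the BA mice, on log2(value + 1), for each of the 6 mice and for the classes with at least 10 listed genes. Microglia markers and complement genes lie to the right in all 3 AP mice, and the medians of cytosolic ribosomal proteins, postsynaptic density genes and respiratory complexes II to V are displaced in AP mice 2 and 3 but stay near 0 in AP mouse 1.

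Of 54 classes with at least 3 listed genes, 7 had medians above all BA mice in every AP mouse and 1 had medians below, and the gap was widest for the microglia markers, at 0.45 on the log2 scale. The other 6 were complement genes, cathepsins and lysosomal hydrolases, antigen presentation genes, histones, monoamine, acetylcholine and opioid receptors, and interleukins, with gaps between 0.027 and 0.28. The monoamine class had 4 of 8 genes higher, and its median turned negative without BA mouse 2 or 3. Collagens, laminins and integrins were the lower class, with a gap of 0.057. Of these genes, 32 were higher and 35 lower. Only 2 agreed lower, 3.0% against 6.45% of all genes, and 5 agreed higher. Of 20 listed microglia markers, 19 were higher in AP mice with an unadjusted limma p under 0.05, and the groups of the same 19 did not overlap. None was called over all genes, and their adjusted p-values lay between 0.217 and 0.54. In a limma fit whose variance prior followed mean expression, 5 of them (Ctss, Cx3cr1, Laptm5, Selplg and Tmem119) were among 10 called genes, with adjusted p-values between 0.0457 and 0.0481. The median log2 fold change of the list was 1.52, against -0.03 over all genes. Set against the mean of the BA mice, the markers had a median displacement of 1.56, 1.10 and 1.92 in AP mice 1, 2 and 3. In BA mice 1, 2 and 3 it was -0.07, -0.41 and 0.65. All AP mice were above all BA mice, and BA mouse 3 was the highest of its group. Leaving out any single mouse left 18 or 19 of the 20 with an unadjusted p under 0.05.

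Tmem119, a transmembrane protein used to tell microglia from other macrophages, was listed at 38.2, 45.0 and 51.0 in BA mice and at 190, 121 and 236 in AP mice. Even the lowest AP mouse was above the highest BA mouse by a wide margin. Its log2 fold change was 1.96 ± 0.29 (SE), with a limma adjusted p of 0.217. The homeostatic receptor genes P2ry12, an ADP receptor, and Cx3cr1, the receptor for the neuronal chemokine fractalkine, followed the same pattern. P2ry12 was at 133, 161 and 348 in BA mice and at 577, 436 and 1035 in AP mice. Cx3cr1 was at 201, 203 and 322 in BA mice and at 666, 492 and 944 in AP mice. For both genes AP mouse 3 was the highest and AP mouse 2 the lowest of its group, and BA mouse 3 came nearest to the AP mice. Selplg, the ligand gene for P-selectin, was at 129, 112 and 176 in BA mice and at 467, 354 and 663 in AP mice. Csf1r encodes the growth factor receptor on which microglia depend for survival. It was at 592, 518 and 1078 in BA mice and at 1767, 1268 and 2152 in AP mice, with a log2 fold change of 1.29 ± 0.34 (SE). Sall1, a transcription factor gene counted among the microglia markers, was the exception: it was at 639, 529 and 612 in BA mice and at 698, 597 and 489 in AP mice, and the groups overlapped.

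**Figure D2:**
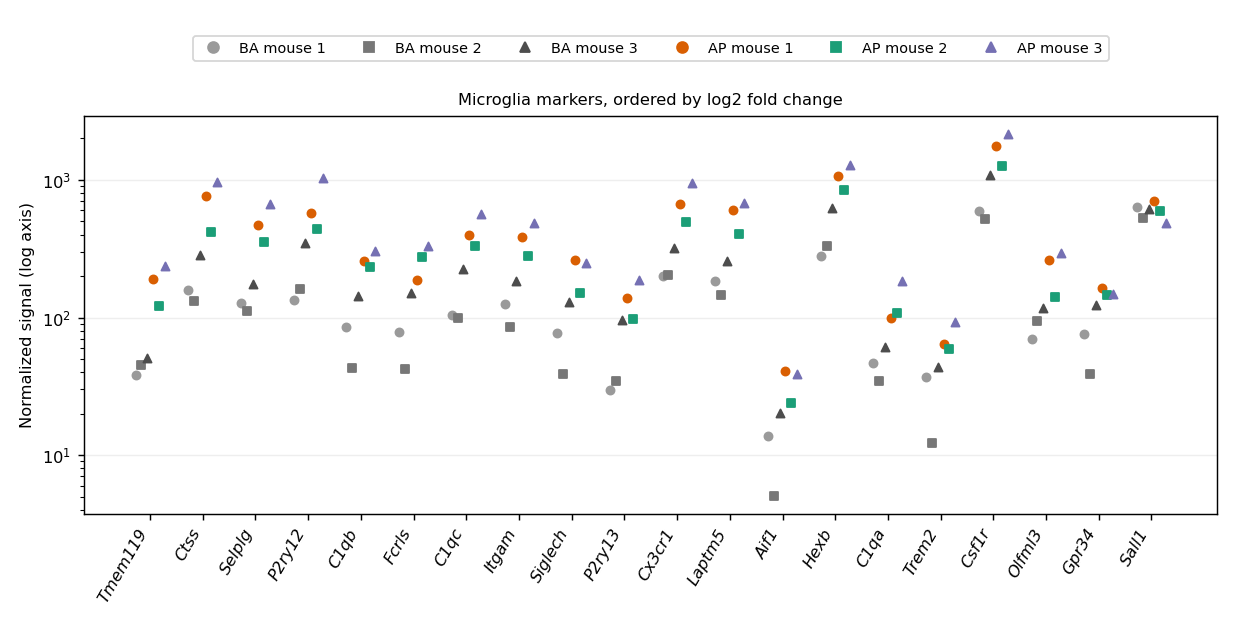
Normalized signal, on a log axis, of the 20 listed microglia markers in each of the 6 mice, ordered by log2 fold change. In 19 of the 20 genes all 3 AP mice lie above all 3 BA mice, and Sall1, at the right, is the exception.

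Markers of other immune cells overlapped between the groups. The 4 listed genes of border macrophages and monocytes were higher in AP mice by a median log2 fold change of 0.30, but none had an unadjusted limma p under 0.05 and none agreed in all mice. Mrc1, the mannose receptor of perivascular macrophages, was at 391, 261 and 1086 in BA mice and at 377, 782 and 933 in AP mice. Lyz2, which encodes lysozyme, was at 99.0, 59.4 and 199 in BA mice and at 102, 187 and 210 in AP mice. BA mouse 3 was high for both genes and AP mouse 1 lay within the BA range. Of 15 lymphocyte markers 2 were listed, Ighm and Cd8a, and Cd3e, Cd4 and Cd79a were not among the listed genes.

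Immune effector classes leaned the same way as the microglia markers, and part of their members are on that list. Over the union of the immune, lysosomal and microglia classes, 63 of 223 genes agreed higher, 28.3% against 5.64% of all genes, and 4 agreed lower, 1.8% against 6.45%. The union includes the 20 listed microglia markers, and 19 of the 63 are from that list. Complement genes had a median log2 fold change of 1.203. At an unadjusted p under 0.05, 6 of 10 were higher and none lower, where 4.99% of all genes were higher. Of the 10 complement genes, 4 are microglia markers. The 6 that are not microglia markers had a median of 0.15. Only 2 of these 6 were higher at that threshold, and 0 agreed higher. C1qa, C1qb and C1qc, the 3 chains of the first complement component, agreed in all mice. C1qa was at 46.8, 34.8 and 60.8 in BA mice and at 99.8, 108 and 184 in AP mice. C1qc was at 104, 99.4 and 224 in BA mice and at 398, 330 and 570 in AP mice. Not every complement gene was displaced: C4b, which acts further along the cascade, was at 296, 144 and 273 in BA mice and at 175, 253 and 199 in AP mice, with overlapping groups. Among Fc receptors, C-type lectins and Siglecs, 7 of 15 had an unadjusted p under 0.05, all higher, 46.7% against 4.99% of all genes. The class median was 0.83, but the 13 that are not microglia markers had a median of 0.28. Without BA mouse 1 the median of the 15 was 0.45. Fcer1g, the signaling chain shared by several Fc receptors, was at 52.1, 49.1 and 52.3 in BA mice and at 176, 169 and 275 in AP mice. Its BA values were tightly grouped, and its log2 fold change was 1.96 ± 0.25 (SE), with a limma adjusted p of 0.117.

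The upstream sequence of these genes was read where RefSeq (GRCm38.p6) supplies it, as context for genes that were higher together. Of the 20 listed microglia markers, 14 had an entry. The searched motif was GAGGAAGT, the purine-rich core bound by the myeloid factor PU.1, on either strand of the 250 bases before the gene start. It was found in 1 of the 14 (7.14%), against 2.44% of all 32851 promoters of the same length. Among the agreeing genes with the largest gaps, described below, it was found in 1 of 8 higher genes and in 0 of 6 lower genes. Both matches are printed 5′ to 3′ on the gene's strand, with the motif, or its reverse complement ACTTCCTC, in capitals. They are chr4:136892915-136893164 for C1qc and chr10:10558208-10558457 for Rab32, both on the minus strand.
C1qc: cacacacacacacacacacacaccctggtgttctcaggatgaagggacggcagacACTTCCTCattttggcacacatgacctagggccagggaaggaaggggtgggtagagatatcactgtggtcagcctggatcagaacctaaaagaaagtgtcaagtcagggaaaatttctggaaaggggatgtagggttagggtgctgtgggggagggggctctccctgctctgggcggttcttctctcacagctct
Rab32: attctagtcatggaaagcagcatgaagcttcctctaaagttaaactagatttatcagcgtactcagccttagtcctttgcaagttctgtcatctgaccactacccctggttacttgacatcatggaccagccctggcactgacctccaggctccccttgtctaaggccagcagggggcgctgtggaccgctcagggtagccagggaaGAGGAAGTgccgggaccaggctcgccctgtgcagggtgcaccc
A match is a description of letters, and no match says only that these letters are not in the window.

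Signal receptors and secreted factors of the immune classes showed both agreeing and overlapping members. Of 17 chemokine ligands and receptors, 6 had an unadjusted p under 0.05, all higher, 35.3% against 4.99% of all genes. The class median log2 fold change was 0.85, or 0.73 without Cx3cr1. Single mice moved these values: the median was 0.49 without BA mouse 1, and the count was 3 without BA mouse 2 and 9 without BA mouse 3. Ccrl2, an atypical chemokine receptor, was at 38.2, 24.5 and 32.6 in BA mice and at 138, 71.4 and 97.2 in AP mice. Ccl2, a monocyte attractant, was at 68.1, 15.3 and 131 in BA mice and at 93.0, 118 and 134 in AP mice, with groups that overlapped. Of 36 interleukins, TNF family members and their receptors, 13 were higher and 1 lower at an unadjusted p under 0.05, together 38.9% against 7.77% of all genes. The class median was 0.28, and 0.47 without BA mouse 3 or 0.48 without AP mouse 1. Il21r, the receptor for interleukin 21, was at 6.26, 9.17 and 15.5 in BA mice and at 49.8, 26.1 and 40.9 in AP mice. Tgfb3, a growth factor of the transforming growth factor family, was the lower one, at 116, 156 and 96.4 in BA mice and at 89.6, 53.0 and 63.6 in AP mice. Among Toll-like receptors and NF-kB genes, 5 of 33 passed the unadjusted threshold, all higher, 15.2% against 4.99% of all genes. Tlr4, the receptor for bacterial lipopolysaccharide, was at 4.13, 9.17 and 16.7 in BA mice and at 49.8, 47.3 and 49.6 in AP mice, with a log2 fold change of 2.36 ± 0.41 (SE). Its 3 AP values were nearly the same, and the BA mice differed from each other. The interferon response class as a whole lay near 0, with a median of 0.03, although Irf8, a transcription factor of the myeloid lineage, was at 22.3, 14.3 and 22.8 in BA mice and at 104, 43.1 and 123 in AP mice.

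Antigen presentation and lysosomal genes had medians above 0 as well. Of 16 genes of the major histocompatibility complex and antigen presentation, 6 had an unadjusted p under 0.05, all higher, 37.5% against 4.99% of all genes. The class median log2 fold change was 0.43, and 3 genes were higher at that threshold without BA mouse 2 or without AP mouse 1. In the fit without AP mouse 1 there were also 2 lower genes at that threshold. B2m, the light chain of class I molecules, was at 203, 272 and 540 in BA mice and at 796, 626 and 1063 in AP mice. H2-D1, a class I heavy chain whose reads can be shared with near-identical genes, was at 71.3, 73.7 and 115 in BA mice and at 146, 83.3 and 129 in AP mice, with overlap. Of 43 cathepsins and lysosomal hydrolases, 33 were higher, and the median was 0.22. In this class 13 agreed higher, 30.2% against 5.64% of all genes, and 0 agreed lower. At an unadjusted p under 0.05, 8 were higher, 18.6% against 4.99% of all genes. That count was 3 or 4 without BA mouse 1, BA mouse 2, AP mouse 2 or AP mouse 3. Ctss, a cathepsin of antigen-presenting cells and itself a microglia marker, was at 159, 132 and 285 in BA mice and at 760, 421 and 968 in AP mice. Ctsd, a cathepsin found in the lysosomes of every cell type, was at 834, 839 and 885 in BA mice and at 1169, 1282 and 1163 in AP mice, with a log2 fold change of 0.50 ± 0.20 (SE). The AP values of Ctsd were close to each other and above all BA mice.

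Among all genes, the agreeing ones with the widest gap and a mean of at least 20 in the higher group included several that belong to no class above. Spint1, a membrane inhibitor of serine proteases, was at 3.07, 4.05 and 4.45 in BA mice, all under the level of 3 reads, and at 17.9, 33.2 and 44.2 in AP mice, at least 5.59-fold higher. Emilin1, an elastic fiber glycoprotein, was at 4.13, 5.07 and 4.45 in BA mice, none above the level of 3 reads, and at 20.2, 19.7 and 23.6 in AP mice, at least 3.73-fold higher. Emilin1 had a limma adjusted p of 0.0523 and passed 0.05 when the lowest value was subtracted, with 0.0238. Efhd2, a calcium-binding protein of immune cells and neurons, was at 69.1, 53.2 and 81.7 in BA mice and at 204, 227 and 255 in AP mice. Coro1a, an actin-binding protein of leukocytes, was at 12.7, 8.15 and 20.4 in BA mice and at 49.8, 43.8 and 42.0 in AP mice. Parvg, an integrin adaptor of blood cells, was at 9.46, 13.3 and 16.7 in BA mice and at 40.7, 36.0 and 38.8 in AP mice. The AP values of Emilin1, Efhd2, Coro1a and Parvg spanned between 0.17 and 0.32 on the log2 scale, and those of Spint1 spanned 1.26. The others of the 12 were Fcer1g, Tlr4, Tmem119 and Selplg, given above, and Mlph, Rab32 and Plxdc1, with log2 fold changes between 1.66 and 1.96. Rab32 and Mlph act in the transport of lysosome-related organelles.

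**Figure D3:**
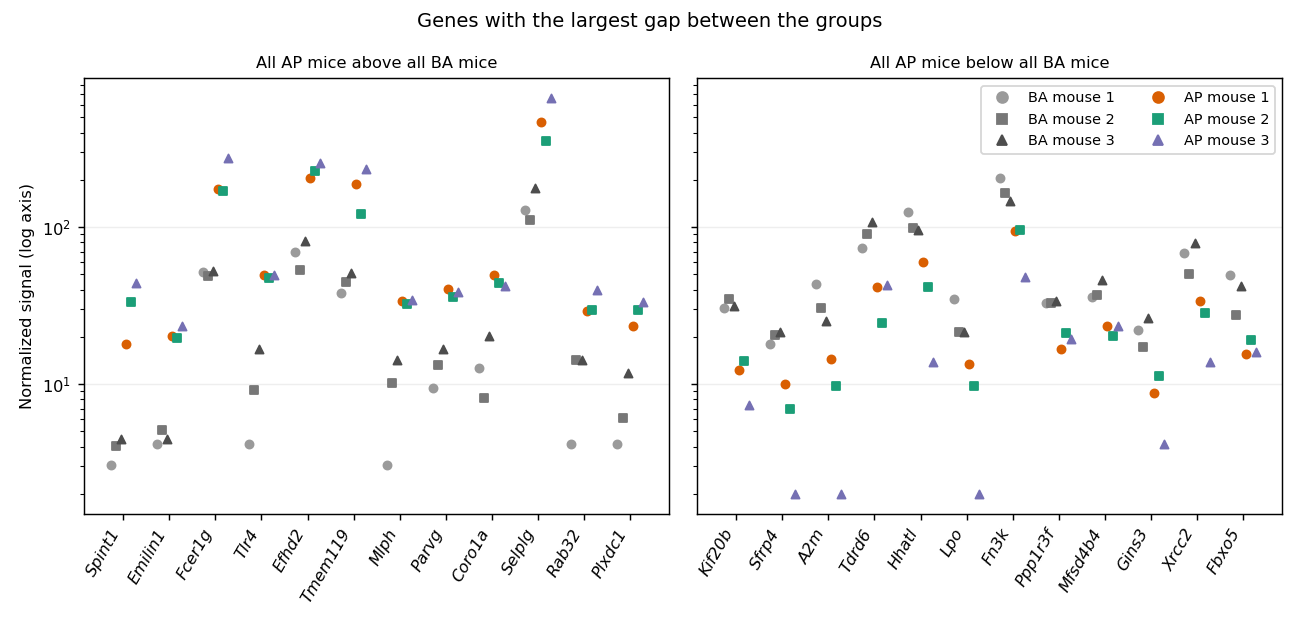
Normalized signal, on a log axis, in each of the 6 mice for the 12 agreeing genes with the largest gap in each direction. The AP mice stand clear of the BA mice in both panels, and in the panel of lower genes AP mouse 3 is at 2, the value without reads, for Sfrp4, A2m and Lpo.

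The 12 agreeing genes with the widest gap below the BA mice are described singly, and no shared function was tested. Kif20b, a kinesin of cell division, was at 30.8, 34.8 and 31.4 in BA mice and at 12.2, 14.0 and 7.41 in AP mice, with a log2 fold change of -1.49 ± 0.27 (SE). Fbxo5, an inhibitor of the anaphase-promoting complex, was at 49.95, 27.6 and 42.5 in BA mice and at 15.6, 19.0 and 16.1 in AP mice. Xrcc2, a DNA repair gene, was at 68.1, 50.3 and 79.3 in BA mice and at 34.0, 28.2 and 13.9 in AP mice. Gins3, a subunit of the replication helicase, was at 22.3, 17.4 and 26.5 in BA mice and at 8.82, 11.2 and 4.16 in AP mice. AP mouse 3 was the lowest of its group for Kif20b, Xrcc2 and Gins3. Fn3k, an enzyme that removes sugar from glycated proteins, was at 207, 165 and 147 in BA mice and at 94.1, 95.5 and 48.5 in AP mice. Tdrd6, a tudor domain protein known from the germ line, was at 73.4, 90.1 and 109 in BA mice and at 41.8, 24.7 and 43.1 in AP mice. A2m, a protease inhibitor, was at 43.6, 30.7 and 25.3 in BA mice and at 14.5, 9.79 and 2 in AP mice. For A2m, Sfrp4 and Lpo, AP mouse 3 was at the value without reads, so the size of those differences rests partly on it. The other members of the 12 were Hhatl, Ppp1r3f and Mfsd4b4, with log2 fold changes of -1.66, -0.77 and -0.78.

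Classes of transcription and chromatin genes had medians slightly below that of all genes. Of 318 zinc finger genes named Zfp, most of which are DNA-binding repressors, 98 were higher and 220 lower, with a median log2 fold change of -0.17. By mouse the median difference was -0.02, -0.14 and -0.19 in AP mice and -0.08, -0.02 and 0.13 in BA mice, so AP mouse 1 lay within the BA range. In this class 30 genes agreed lower, 9.4% against 6.45% of all genes, and 12 agreed higher, 3.8% against 5.64%. At an unadjusted p under 0.05 were 20 genes, 6.3% against 7.77% of all, and 11 varied among AP mice, 3.5% against 3.31%. Most of these shares were near those of all genes. The class median was -0.10 without BA mouse 3 or AP mouse 3. Zfp866 was at 307, 304 and 304 in BA mice and at 236, 202 and 212 in AP mice. Zfp580 went the other way, from 18.0, 18.4 and 15.5 in BA mice to 31.6, 50.9 and 42.0 in AP mice. Chromatin modifiers and remodelers had 37 higher and 65 lower of 102, with a median of -0.07. In this class 11 agreed lower, 10.8% against 6.45% of all genes, and 3 had an unadjusted p under 0.05, 2.9% against 7.77%. The median was -0.02 without AP mouse 2. Brd9, a bromodomain subunit of a remodeling complex, was at 538, 397 and 459 in BA mice and at 342, 300 and 254 in AP mice. Splicing factors and RNA helicases had 11 of 123 agree lower, 8.9% against 6.45% of all genes, and 3 at an unadjusted p under 0.05, 2.4% against 7.77%. Ddx17, a helicase, agreed lower, at 4608, 4002 and 4566 in BA mice and at 3638, 2652 and 2686 in AP mice. These shifts are small beside those of the microglia markers.

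Genes that vary among AP mice were counted by a fixed rule: a range of at least 2 on the log2 scale among AP mice, a range under 1 among BA mice and a highest AP value of at least 20. The rule found 391 genes, 3.31% of all. Because the AP range must exceed the BA range, at least 1 AP mouse lies outside the BA mice in every such gene. Counts of AP mice above or below all BA mice in these genes follow in part from the rule. Turned around, with the BA mice as the varying group, it found 130. Over all genes, 58.7% had a larger range among AP than among BA mice, with median ranges of 0.62 and 0.50. Of the 391 genes, AP mouse 3 stood apart in 220, lower in 143 and higher in 77. AP mouse 1 stood apart in 132, lower in 106 and higher in 26, and AP mouse 2 in 39, lower in 22 and higher in 17. No microglia marker and no oligodendrocyte marker was among the 391, and 5 of the 16 astrocyte markers were (31.2% against 3.31% of all genes). The median BA range of the microglia markers was 1.14, so the limit on the BA range kept many of them out whatever their AP values. At a share of 3.31% over all genes, lists this short can also hold none. The absence of these markers therefore does not show agreement among AP mice.

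**Figure D4:**
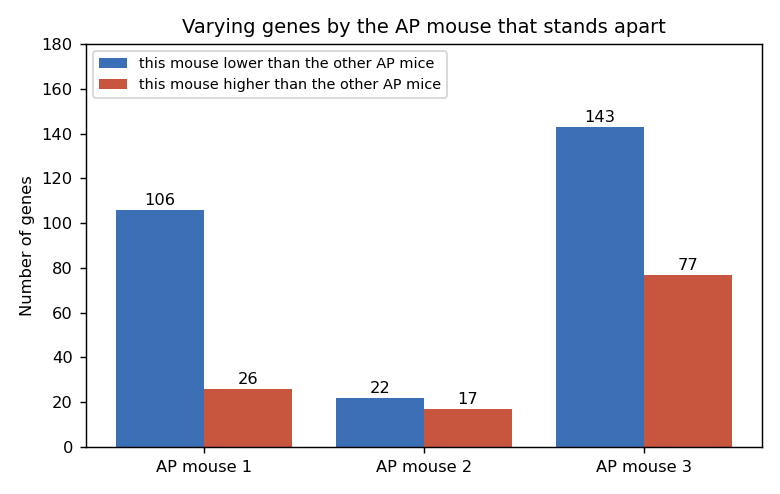
Number of genes with a range of at least 2 on the log2 scale among AP mice, split by the AP mouse farthest from the median of the 3 and by its direction. AP mouse 3 leads with 143 lower and 77 higher genes, AP mouse 1 follows with 106 lower and 26 higher genes, and AP mouse 2 has 22 and 17.

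The widest ranges among AP mice set AP mouse 1 below AP mice 2 and 3 and included genes known from neurons. Of the 106 genes for which AP mouse 1 stood apart below the others, 22 belong to a neuronal class, as do 404 of all 11820 genes (3.42%). In the 106 genes for which AP mouse 1 stood apart below the others, AP mice 2 and 3 were both above all BA mice in 97, and AP mouse 1 was below all BA mice in 83. Both counts follow in part from the rule. Nrgn encodes neurogranin, a calmodulin-binding protein of dendritic spines. It was at 14.8, 20.4 and 16.7 in BA mice and at 5.41, 113 and 397 in AP mice. Ddn, which encodes the dendritic protein dendrin, was at 32.9, 37.9 and 24.1 in BA mice and at 16.8, 384 and 562 in AP mice. Hpcal4, a neuronal calcium sensor, was at 80.9, 65.5 and 42.4 in BA mice and at 25.9, 325 and 669 in AP mice. In these 3 genes AP mouse 1 lay below every BA mouse, and AP mouse 3 was the highest. Cnih3, an auxiliary subunit of AMPA receptors, was at 7.33, 8.15 and 9.36 in BA mice and at 2, 14.8 and 60.4 in AP mice.

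Camk2a, the alpha subunit of calcium/calmodulin kinase II and a marker of excitatory forebrain neurons, showed the same division. It was at 64.9, 98.3 and 69.4 in BA mice, at 77.0 in AP mouse 1 and at 843 and 1401 in AP mice 2 and 3. AP mouse 1 was within the BA range. Its log2 fold change was 2.55 ± 0.92 (SE), with a limma adjusted p of 0.545, and without AP mouse 1 it was 3.82 with an adjusted p of 0.0152. Without AP mouse 1, 15 genes were called in place of 1, named here after their values were seen, and 13 of them were not called in any other fit tried. They included Rims1, a scaffold of the presynaptic release site, at 81.9, 161 and 91.5 in BA mice and at 58.9, 828 and 1042 in AP mice, and Ddn, Camk2n1, Rapgef4 and Dok6. Camk2n1, an inhibitor of the same kinase, was at 160, 283 and 198 in BA mice and at 195, 1166 and 1076 in AP mice. The summed level of the excitatory neuron markers was 76, 115 and 82 in BA mice and 78, 951 and 1794 in AP mice, and the part of the share of neuronal RNA in these differences was not tested.

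**Figure D5:**
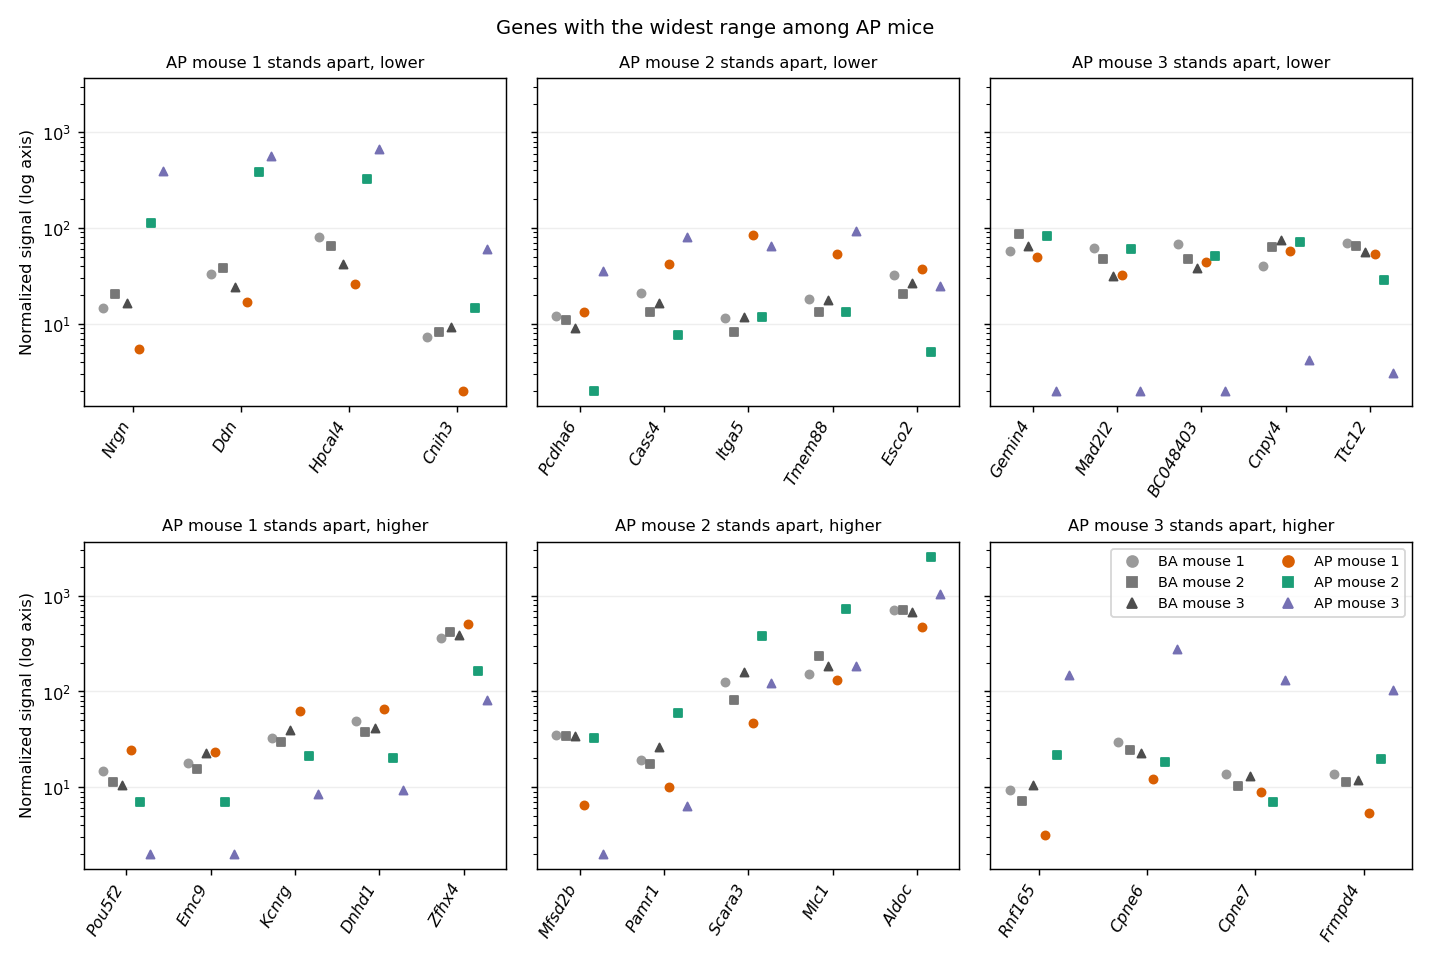
Normalized signal, on a log axis, in each of the 6 mice for 4 or 5 genes with the widest range among AP mice in each of 6 patterns, by the AP mouse that stands apart and its direction. Neuronal genes such as Nrgn and Ddn are low in AP mouse 1 and high in AP mice 2 and 3, and Gemin4, Mad2l2 and BC048403 are at 2 in AP mouse 3 alone.

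Synaptic and receptor classes were displaced unequally among the AP mice. Of 34 postsynaptic density and CaM kinase genes, 28 were higher in AP mice, with a median log2 fold change of 0.36, and 5 varied among AP mice. The class median was -0.04 in AP mouse 1, 0.46 in AP mouse 2 and 0.61 in AP mouse 3, and the median log2 fold change was 0.19 without AP mouse 3. In this class 4 genes agreed higher, 11.8% against 5.64% of all genes, and 1 agreed lower, 2.9% against 6.45%. Dlgap4, a scaffold that binds PSD-95, agreed higher, at 233, 173 and 181 in BA mice and at 264, 284 and 302 in AP mice. Synaptic vesicle and SNARE genes had a median of 0.13 over 39 genes, with -0.17, 0.03 and 0.48 in AP mice 1, 2 and 3, and 7 varied. AP mouse 2 lay within the BA range for that class, and the median was 0.009 without AP mouse 3. The 5 voltage-gated sodium channels had medians of -0.30, -0.10 and 1.39 in AP mice 1, 2 and 3 against -0.30 to 0.27 in BA mice, and the 16 calcium channels had -0.04, 0.06 and 0.23 against -0.06 to 0.22. All 7 listed GABA receptor subunits were higher, with medians of -0.14, 0.69 and 0.84 by AP mouse, and the median log2 fold change of 0.47 lay between 0.28 without AP mouse 3 and 1.04 without AP mouse 1. Gabra2, a GABA-A subunit, was at 60.6, 46.1 and 90.6 in BA mice and at 64.2, 199 and 277 in AP mice. Of 12 subunits of AMPA, NMDA and kainate receptors, 1 agreed lower, 8.3% and near the 6.45% of all genes, and 0 agreed higher. It was Grik4, a kainate receptor subunit, at 91.5, 103 and 95.2 in BA mice and at 66.8, 59.4 and 31.2 in AP mice. The 6 listed of 17 GABAergic neuron markers had a median of -0.08, with -0.24, 0.28 and 0.05 by AP mouse.

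The genes with the widest upward departure of AP mouse 3 included Cpne6 and Rnf165. Cpne6, a calcium-binding copine of excitatory neurons, was at 29.7, 24.6 and 22.8 in BA mice and at 12.2, 18.3 and 280 in AP mice. Rnf165, a ubiquitin ligase, was at 9.46, 7.12 and 10.6 in BA mice and at 3.14, 21.8 and 148 in AP mice. Cpne7 and Frmpd4, a postsynaptic scaffold gene, reached 132 and 104 in AP mouse 3 and did not exceed 19.7 in the other 5 mice. Scn2a, a voltage-gated sodium channel, was at 74.5, 101 and 51.0 in BA mice and at 58.9, 88.2 and 376 in AP mice. Of the 77 genes that stood apart upward in AP mouse 3, 76 were above all BA mice there, in part because of the rule. Among the 77, 13 belong to a neuronal class, as do 3.42% of all genes.

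The 143 genes that stood apart downward in AP mouse 3 were of another kind. They had a median value of 30.5 over the 6 mice, 33 of them were at the lowest value in that mouse, and 2 belong to a neuronal class. Gemin4, a member of the SMN complex that assembles spliceosomal particles, was at 57.4, 87.8 and 65.7 in BA mice and at 49.4, 82.8 and 2 in AP mice. Most exonic bases of Gemin4 also belong to exons of Glod4 on the same strand. How reads were divided between these genes therefore bears on the values of Gemin4. Mad2l2, a subunit of a translesion polymerase, was at 61.7, 47.1 and 31.4 in BA mice and at 32.7, 60.8 and 2 in AP mice. Cnpy4 was at 40.4, 63.5 and 74.3 in BA mice and at 57.7, 71.4 and 4.16 in AP mice. Ttc12 was at 69.1, 65.5 and 55.9 in BA mice and at 54.3, 28.9 and 3.08 in AP mice. AP mice 1 and 2 lay within or near the BA range for Gemin4, Mad2l2 and Cnpy4. Among all listed genes, 108 were at the lowest value in AP mouse 3 alone among AP mice, and the part of that library in these 143 differences was not tested.

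AP mouse 2 stood apart in few genes, and those that were high there included 2 astrocyte markers, Aldoc and Mlc1. Aldoc, the aldolase of astrocytes, was at 711, 709 and 676 in BA mice and at 474, 2556 and 1039 in AP mice. Mlc1, a membrane protein of astrocyte endfeet, was at 153, 234 and 185 in BA mice and at 130, 721 and 186 in AP mice. In the other 3 varying astrocyte markers AP mouse 1 stood apart below AP mice 2 and 3. Among them Slc1a2, the main glutamate transporter of astrocytes, was at 8318, 7658 and 11549 in BA mice and at 5919, 37976 and 21831 in AP mice. Over all 16 astrocyte markers the median displacement was -0.41, 1.21 and 0.36 in AP mice 1, 2 and 3, and BA mice lay between -0.18 and 0.08. The median log2 fold change turned from 0.38 to -0.06 when AP mouse 2 was left out. Glul, glutamine synthetase, was the 1 astrocyte marker that was lower in AP mice, at 11148, 12355 and 7408 in BA mice and at 7946, 9656 and 6158 in AP mice, with overlap. Genes lowest in AP mouse 2 included Cass4, Tmem88 and Itga5. Itga5, an integrin subunit, was at 11.6, 8.15 and 11.8 in BA mice and at 85.0, 11.9 and 64.7 in AP mice.

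In genes that stood apart upward in AP mouse 1, AP mice 2 and 3 were below all BA mice in 25 of 26, a count that follows in part from the rule for variation. Zfhx4, a homeobox transcription factor, was at 361, 421 and 384 in BA mice and at 506, 162 and 82.0 in AP mice. Kcnrg and Dnhd1 showed the same order, with 62.3, 21.1 and 8.49 in AP mice for Kcnrg and 65.2, 19.9 and 9.36 for Dnhd1. AP mouse 1 was above all BA mice for these 3 genes. Pou5f2 and Emc9 were at the lowest value in AP mouse 3.

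Cytosolic ribosomal protein genes were higher in 79 of 82 cases, with a median log2 fold change of 0.60. At an unadjusted p under 0.05, 28 were higher and none lower, 34.1% of the class against 7.77% of all genes. None was called, and 21 agreed higher, 25.6% against 5.64% of all genes. By mouse the median difference was 0.09, 0.76 and 0.93 in AP mice 1, 2 and 3 and 0.14, 0.12 and -0.21 in BA mice, so AP mouse 1 lay within the BA range. Rps23, of the small subunit, was at 127, 202 and 182 in BA mice and at 199, 379 and 676 in AP mice. Rpl31, of the large subunit, agreed, at 159, 178 and 182 in BA mice and at 276, 375 and 400 in AP mice. Rpl27 was the lowest of the class, at 87.3, 74.8 and 74.3 in BA mice and at 61.1, 90.0 and 34.4 in AP mice. The number with an unadjusted p under 0.05 depended on single mice: it was 62 without AP mouse 1 and between 3 and 15 without any 1 of the other mice. Ribosomal protein genes have many processed copies in the genome, so reads may be divided among them. Mitochondrial ribosomal proteins, translation factors and proteasome subunits had medians of 0.06, -0.04 and -0.02.

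Energy genes were displaced in the same AP mice as the ribosomal proteins. All 4 listed genes of the mitochondrial genome were higher, with median differences of -0.17, 1.69 and 1.98 in AP mice 1, 2 and 3. The gene mt-Co3, a subunit of cytochrome oxidase, was at 9542, 16735 and 19245 in BA mice and at 11486, 55881 and 58315 in AP mice. The nuclear genes of respiratory complexes II to V were higher in 35 of 40 cases, with -0.09, 0.65 and 0.46 by AP mouse, and glycolytic genes in 18 of 21. The median log2 fold change of complexes II to V was 0.30, and 0.17 without AP mouse 2 or 0.52 without AP mouse 1, and that of glycolytic genes was 0.33, and 0.011 without AP mouse 2. Ldha, lactate dehydrogenase A, agreed, at 138, 145 and 172 in BA mice and at 218, 290 and 388 in AP mice. Transcript length moved with the same mice. With genes split by exonic length into 5 bins of equal size, in the shortest bin, with up to 2767 bases, the median difference was -0.003, 0.21 and 0.11 in AP mice 1, 2 and 3, and in the longest bin, from 8138 bases, it was 0.02, -0.18 and -0.11. Its part in the ribosomal and mitochondrial differences was not tested.

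Immediate early genes, which cells switch on within minutes of activity or of tissue dissociation, were higher in 16 of 16 listed genes with a median log2 fold change of 0.80. At an unadjusted p under 0.05, 6 were higher, 37.5% against 4.99% of all genes, and none was called. Only 1 agreed, 6.2% of the class, near the 5.64% of all genes. The count of 6 was 1 without BA mouse 2, 2 without AP mouse 1, 3 without BA mouse 3 or AP mouse 3, and 11 without BA mouse 1 or AP mouse 2. By mouse the median difference was 1.08, 0.15 and 1.27 in AP mice 1, 2 and 3 and 0.53, -0.25 and -0.31 in BA mice. AP mouse 2 was thus below BA mouse 1. Fos was at 4713, 2338 and 1526 in BA mice and at 5486, 3433 and 6787 in AP mice. Egr1 was at 4189, 2110 and 1775 in BA mice and at 6198, 3435 and 6326 in AP mice. For Fos and Egr1, both immediate early transcription factors, BA mouse 1 exceeded AP mouse 2. Nr4a2, a nuclear receptor, was the agreeing gene, at 44.6, 29.7 and 33.9 in BA mice and at 74.8, 57.3 and 159 in AP mice. Arc, a synaptic immediate early gene, had overlapping groups, at 1103, 799 and 474 in BA mice and at 1096, 673 and 671 in AP mice.

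No difference between the groups larger than the spread between mice was detected in oligodendrocyte genes. Of the 15 markers, 3 were higher and 12 lower in AP mice, none had an unadjusted limma p under 0.05, and the median log2 fold change was -0.13. The log2 fold changes of the 15 lay between -0.47 and 0.33, and the highest was that of Mbp, so it went against most of the list. Mbp, myelin basic protein, was at 35014, 45063 and 27714 in BA mice and at 35652, 48379 and 50253 in AP mice. The groups of Mbp overlapped. Of the vascular markers, 11 of 12 endothelial markers were higher, with a median of 0.22 that lay between 0.09 and 0.47 with 1 mouse left out. An unadjusted p under 0.05 was found for 1 of them, 8.3% against 7.77% of all genes.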

How the data were processed

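RNA of YFP-positive amygdala cells of single mice was sequenced by the authors from ultra-low input, stranded libraries. The submitters' processing notes name bcl2fastq 2.20, Salmon 1.2 and GRCm38.p6. The authors deposited a normalized signal per gene and mouse, made by TMM normalization and a filter on low counts. The study also names ARSyN batch correction, but whether it was applied to this table is not given in the sources used here. Low values lie on steps of 1 read for 78.7% to 87.2% of the low values of a mouse, too few to recover counts, so no count test was run. Of 11820 identifiers, 11381 matched GENCODE M21 with their version, 402 without it and 37 not at all. The table of avoiding mice was not used here.

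Values were tested as log2(value + 1) with limma 3.58.1 in R 4.3.3, without covariates, and adjusted over all genes. The filter on low values was that of the deposited table. Scripts were tested on simulated data. Descriptions and plots were made in Python 3.11.15 (numpy 2.4.6, pandas 2.3.3, matplotlib 3.10.9). Genes were grouped in 58 classes. Named were the 12 agreeing genes with the largest gap in each direction, the 5 widest varying genes per AP mouse and direction, the called gene and, in each class, the extremes and up to 4 agreeing members. Predicted models and pseudogenes were counted, not named. Some genes that this rule covers are not reported here. Some further members are named as examples chosen after their values were seen. The comparison, classes and lists were chosen with earlier results of these data known. Alternatives were another pseudocount, subtraction of the lowest value, median centring, a filter on the mean, a variance prior that follows expression, each mouse left out and the replicate number as a block.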

Additional observations from a re-analysis of the deposited data

How the results depend on the processing

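Of the counts over all genes, the number of called genes was the least stable. It was 1 as reported and with median centring, and 2 at an adjusted p under 0.1 or with the lowest value subtracted. It was 10 when the variance prior followed mean expression, and 0 with a pseudocount of 5. It was also 0 with a mean of 20 or more required, a filter that removed Lenep before the fit. Leaving out 1 mouse gave between 0 and 15 calls, the highest without AP mouse 1. The number with an unadjusted p under 0.05 lay between 605, without AP mouse 3, and 1805, without AP mouse 1. A gap of at least 1 left 12 agreeing higher and 3 agreeing lower genes. Among alternatives added after seeing the data, 18 or 19 microglia markers passed an unadjusted p of 0.05 with each mouse left out and 19 in each other fit. Ribosomal protein genes gave 46 when the variance prior followed expression, and between 3 and 62 with each mouse left out. An AP range of at least 3 in place of 2 left 94 varying genes. With the replicate number as a block, 0 genes were called, so Lenep was not, and 1060 had an unadjusted p under 0.05. Deviations of same-numbered BA and AP mice correlated at 0.020, 0.121 and 0.081 across genes, and each mouse correlated best with its own number. The mice were treated as unpaired, and whether equal numbers share a batch was not tested.
The log2 fold changes of 67 genes were recomputed, among them each that is given in the text, and 63 kept their sign in every fit tried. Of the 391 genes that varied among AP mice, 160 (40.9%) turned sign in at least 1 of the 6 fits that left out a mouse. With 1 mouse left out, it lay between -0.015 and 1.31 for Scn2a, between -0.25 and 0.36 for Arc, between -0.13 and 0.13 for Sall1 and between -0.002 and 1.02 for Mrc1. Of 54 class medians, 36 kept their sign under all 10 alternatives and 18 did not, among them those of astrocyte markers, olfactory receptors and sodium channels, each turned by a single mouse. Depth limits what can be said of genes near the level of 3 reads, and 3 mice per group limit every p-value.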

Other observations

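Receptors of the nose were listed in these brain cells. Of 174 olfactory and vomeronasal receptor genes, 50 were higher and 124 lower in AP mice, with a median log2 fold change of -0.15. In this class 2 agreed higher, 1.1% against 5.64% of all genes. The 11 that agreed lower were 6.3% of the class, near the 6.45% of all genes. The median difference was 0.26, -0.57 and -0.17 in AP mice 1, 2 and 3 and -0.04, -0.24 and 0.28 in BA mice, and the class median was 0.05 without AP mouse 2. Olfr1152 agreed, at 35.0, 35.5 and 36.1 in BA mice and at 24.7, 14.0 and 16.2 in AP mice. Pseudogenes, 308 in number, showed a similar order of mice, with 0.18, -0.33 and 0.01 in AP mice.

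Regulators of G protein and cyclic nucleotide signaling depended on single mice. Of 32 RGS proteins, adenylyl cyclases and phosphodiesterases, 8 were higher and none lower at an unadjusted limma p under 0.05, 25.0% against 7.77% of all genes. Their median log2 fold change as a class was 0.41. The median was 0.13 without AP mouse 2 and 0.27 without BA mouse 1, and the count was 4 without BA mouse 1 and 5 without AP mouse 3. Rgs10, a brake on G protein signaling, was at 38.2, 21.5 and 32.6 in BA mice and at 87.3, 53.7 and 86.3 in AP mice. Pde1b, a phosphodiesterase driven by calmodulin, was at 21.2, 39.9 and 26.5 in BA mice and at 81.6, 50.2 and 77.7 in AP mice. Gng2, a G protein gamma subunit, agreed too, at 25.4, 28.6 and 40.0 in BA mice and at 58.9, 85.6 and 178 in AP mice. Histone genes had 7 of 37 agree higher, 18.9% against 5.64% of all genes, and none lower. Their class median was 0.16, or 0.29 without AP mouse 1.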
